A study of Mus musculus with 2 samples.

Results

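Among the cells annotated as fibroblasts in transplanted mouse hearts, 64 of 375 cells carried an endothelial set of transcripts. They were picked by a rule on the data: a cell belonged when at least 3 of 7 endothelial genes (Pecam1, Cdh5, Kdr, Egfl7, Emcn, Fabp4 and Cd93) had a transcript in it. These 64 endothelial-like cells made up 17.1% of the annotated fibroblasts, and the other 311 annotated fibroblasts served as the comparison. All 4441 cells of the study came from 1 droplet pool, with 14 annotated cell types.

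The pool held cells of 6 Bm12 donor hearts, taken 14 days after transplantation into B6 recipients and told apart by antibody hashtags. Bm12 mice carry an altered I-A class II molecule, so every graft was mismatched for class II, in both groups. Hearts 1 to 3 were IL-33+ (WT, Il33+/+) and hearts 4 to 6 were IL-33- (IL33 KO, Bm12 mice backcrossed to Il33-/-). Donors and recipients were male. Whether a cell came from the donor or the recipient was not read here. The cells were labelled as immune cells, since they were taken from the interphase of a density gradient made for leukocytes, so vessel and stromal cells entered as a by-product and their shares are not those of the tissue. The hashtag marks the heart and its tagging together, and these cannot be told apart.

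Endothelial cells line the blood and lymph vessels and the chambers of the heart. They hold to each other through VE-cadherin (Cdh5) and PECAM-1 (Pecam1), and they answer vascular endothelial growth factors through receptors such as VEGFR2 (Kdr) and VEGFR1 (Flt1). In a transplanted heart the endothelium is donor tissue that faces the recipient's leukocytes, and it displays adhesion molecules, chemokines and MHC molecules to them. Arterial, venous, capillary and lymphatic endothelium differ in the genes they use. Fibroblasts, in contrast, make the collagens and proteoglycans of the interstitial matrix.

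Endothelial-like cells came from 5 of the 6 hearts, and 73.4% of them from IL-33+ heart 3. The number was 5 of 34 annotated fibroblasts in heart 1, 2 of 6 in heart 2 and 47 of 270 in heart 3. It was 8 of 31 in IL-33- heart 4, 0 of 4 in heart 5 and 2 of 30 in heart 6. The median depth was 5922 transcript counts (UMIs) per endothelial-like cell and 5679 per other fibroblast, with 2403 and 2283 genes detected. Within hearts the depths differed, at medians of 3412 against 5498 UMIs in heart 1, 5790 against 5560 in heart 3 and 7105 against 7358 in heart 4, and 10474 against 4560 in heart 2 and 10417 against 5817 in heart 6. No cell barcode occurred more than once. Levels are given as CPM, a gene's UMIs scaled to the same total in every cell and averaged over the cells of a heart. Log2 differences were taken on log2(mean CPM + 10), so differences of genes near 0 are understated and, where a group held no count, depend on the 10 CPM added and are no bound.

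Il33, the gene removed from the IL-33- grafts, was low everywhere. In other fibroblasts its level was 28.5, 0 and 60.8 CPM in IL-33+ hearts 1, 2 and 3, against 32.0, 73.8 and 17.3 CPM in IL-33- hearts 4, 5 and 6. In endothelial-like cells it was 0, 0 and 2.87 CPM in hearts 1, 2 and 3, 34.1 CPM in heart 4 and 0 in heart 6. The hearts labelled IL-33- thus also held Il33 counts. Where the deletion lies is not given in the sources used here, and reads at the 3' end may not reach it, so the count does not check the label.

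The rule genes chose the cells, and their values are a description with no test. Cdh5 (chr8:104101625-104144511, mm10) was found in 57 of 64 endothelial-like cells and in 1 of 311 other fibroblasts. Its level was 738, 471, 754, 1178 and 695 CPM in endothelial-like cells of hearts 1, 2, 3, 4 and 6, while in other fibroblasts it was 0.447 CPM in heart 3 and 0 in the other 5 hearts. Kdr was found in 47 cells against 5, Egfl7 in 53 against 4, Cd93 in 47 against 5, and Emcn, which encodes the sialomucin endomucin, in 44 against 2. Pecam1 was found in 62 of 64 cells but also in 79 of 311 other fibroblasts. Fabp4, a fatty acid carrier of capillary endothelium, was found in 51 against 34, at 1193 to 7460 CPM in endothelial-like cells and 0 to 269 CPM in the others. Pecam1 and Fabp4 therefore separated the cells least.

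Cells near the threshold of the rule differed from each other in genes that the rule had not read. From 0 to 7 rule genes, the annotated fibroblasts numbered 202, 88, 21, 5, 8, 12, 19 and 20. The 5 cells just inside, with 3 rule genes, held a median of 10 of 30 further endothelial genes and 4 of 18 fibroblast genes. The 21 cells just outside, with 2 rule genes, held medians of 3 of 30 and 15 of 18. Over all endothelial-like cells the medians were 19 endothelial and 3 fibroblast genes, against 2 and 15 in other fibroblasts. The label was thus checked with genes outside the rule: 61 of 64 endothelial-like cells held more of the 30 endothelial genes than any other fibroblast did, where the most was 6. The other 3 cells held 4 to 6.

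**Figure D1:**
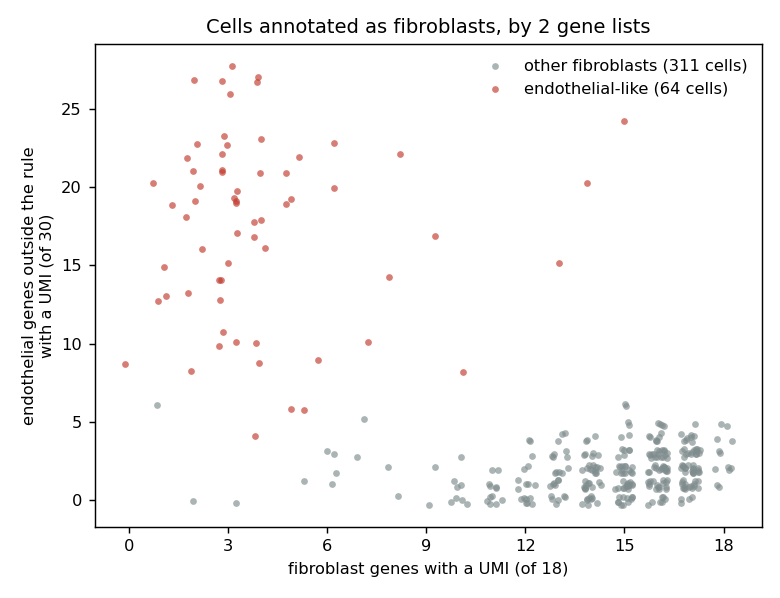
Each point is 1 of the 375 annotated fibroblasts, placed by how many of 18 fibroblast genes (x axis) and of 30 endothelial genes outside the rule (y axis) it held a UMI of, with a small random shift. The 64 endothelial-like cells (red) lie mostly at upper left, at a median of 19 and 3 genes, and the 311 other fibroblasts (grey) lie along the bottom, where none exceeded 6 endothelial genes.

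The transcriptomes of both groups were then compared. The cells were chosen by endothelial genes, so the calls below describe these cells and are no independent evidence that they differ. The 3 hearts with at least 5 endothelial-like cells (1, 3 and 4) were compared within heart by limma, where a call means an adjusted p of at most 0.05 (Benjamini-Hochberg). Over 9465 genes tested, 810 were called (8.56%), 320 higher (3.38%) and 490 lower (5.18%) in endothelial-like cells. With this model, which takes the spread of a gene from its level alone, 784 of them moved the same way in all 3 hearts. A second fit dropped this dependence on level. There each gene kept part of its own spread, but the larger part came from a value shared by all genes. It called 404 genes (4.27%), 138 higher (1.46%) and 266 lower (2.81%), and 387 genes were called by both fits. Below, calls with a gene's own spread are those of this second fit. The median difference of all genes tested was -0.31 on the log2 scale. After that shift was removed, 741 genes were called, 375 higher and 366 lower.

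Of the 30 endothelial genes outside the rule, 29 were tested and 26 were higher, against 3.38% of all genes, with a median difference of 4.26. With every cell thinned to 1500 UMIs, 12 were higher. That run applied the rule again to the thinned counts, which left 5, 32 and 6 endothelial-like cells in hearts 1, 3 and 4. It tested 5197 genes, so some listed genes may have been left untested. The same holds for the other counts of called genes with thinned cells. In the main fit, the called genes Adgrl4 and Myct1 had no count in other fibroblasts of hearts 1, 3 and 4. They passed the filter only through endothelial-like cells and could only come out higher. The VEGF receptor Flt1 (chr5:147561604-147726011, mm10) stood at 520, 256, 844, 877 and 751 CPM in endothelial-like cells of hearts 1, 2, 3, 4 and 6. In other fibroblasts it was at 3.40 CPM in heart 3, 22.9 CPM in heart 6 and 0 in the other 4 hearts. No endothelial-like group overlapped the other fibroblasts, and the difference was 6.06 ± 0.56 (SE, 3 hearts). The tight junction gene Cldn5 stood at 294 to 1465 CPM against at most 10.8 CPM, a difference of 5.65 ± 0.52. Podxl, which encodes the sialomucin podocalyxin, stood at 431 to 1462 CPM, in 52 cells against 7 of the others (5.16 ± 0.52). Cav1, the coat protein of caveolae, was at 233 to 1485 CPM against at most 42.6 CPM (4.75 ± 0.43).

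The rest of the 12 largest differences were of like size. Apold1, Adgrf5, Cd36, Ptprb, Rasip1, Itga6 and Sema3f differed by 4.66 to 5.41. Ptprb encodes the phosphatase VE-PTP, Rasip1 a Ras-interacting protein of vessel lumen formation and Itga6 an integrin that binds laminin. The 12th was the chemokine Cxcl9, described with the adhesion and chemokine genes. The 3 endothelial genes that were tested and not called were Tek, Clec14a and Sox17. The angiopoietin receptor Tek was at 45.7 to 153 CPM in endothelial-like cells, but also at 27.9 to 72.3 CPM in other fibroblasts of hearts 1, 3, 4 and 6 (1.04 ± 0.56, adjusted p = 0.256). Clec14a was found in 20 of 64 cells against 11 of 311, all 20 in heart 3, at 117 CPM (0.14 ± 0.73, adjusted p = 0.936). Sox17 was found in 13 cells against 1 (1.61 ± 0.62, adjusted p = 0.0823).

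Fibroblast genes were low in the endothelial-like cells. All 18 of the list were tested and 17 were lower, against 5.18% of all genes, with a median difference of -5.19. The same number was lower in each of the 3 hearts, against 28.1% of all genes. A limma fit with a robust spread called 14 lower. There Gsn, Dcn and Lum lost the call (adjusted p = 0.183, 0.428 and 0.208). Gsn, which encodes the actin-severing protein gelsolin, stood at 58.6, 141, 1325, 57.5 and 192 CPM in endothelial-like cells of hearts 1, 2, 3, 4 and 6, against 18708 to 28646 CPM in other fibroblasts of the 6 hearts (-7.14 ± 0.32). The collagen I genes Col1a1 and Col1a2 differed by -6.34 ± 0.36 and -6.39 ± 0.34. Col1a2 was found in 31.2% of endothelial-like cells and 98.4% of others. Smoc2, Ogn, Htra3, Pi16, Mmp2, Col6a3, Fbln1 and Clec3b, matrix or secreted proteins of fibroblasts, differed by -6.35 to -5.33, and Smoc2, Ogn and Htra3 were seen in 3, 2 and 2 endothelial-like cells.

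The low fibroblast signal was not even across hearts. The proteoglycan gene Dcn was at 3380 CPM in the endothelial-like cells of heart 1 and at 746 CPM in heart 3, but had no count in heart 4 (-5.55 ± 0.32, against 11075 to 16223 CPM in others). The 2 endothelial-like cells of heart 6 held 960 CPM of Col1a2 and 34677 CPM of Mgp, more Mgp than any group of other fibroblasts (4430 to 11800 CPM). One of these 2 cells held 9 or more of the 18 fibroblast genes. The 18th gene, Thy1, was at 106, 0, 107, 180 and 0 CPM in endothelial-like cells and 18.6 to 94.2 CPM in others (1.17 ± 0.55, adjusted p = 0.182). T cells held more of it, at 619 CPM in Trm-like cells.

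**Figure D2:**
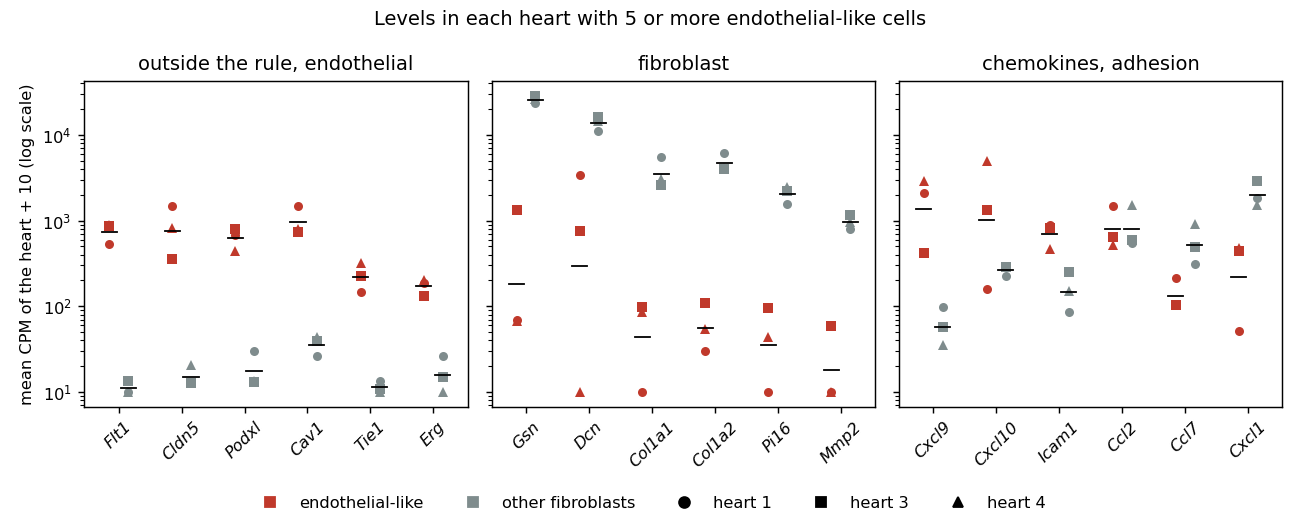
Mean CPM plus 10 on a log axis for 6 endothelial genes outside the rule, 6 fibroblast genes and 6 chemokine or adhesion genes. Each symbol is 1 heart (circle heart 1, square heart 3, triangle heart 4), red for endothelial-like cells and grey for other fibroblasts, and the bar is the mean of the 3 hearts on the log scale. Groups lie apart for the genes of the first 2 panels, while Ccl2 lies at 514 to 1469 CPM in endothelial-like cells and 534 to 1512 CPM in others.

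Some endothelial-like cells also held genes of another kind of cell. Mural cells, the pericytes and smooth muscle cells that wrap vessels, are marked by Rgs5, Myh11 and Acta2. Of the 64 cells, 12 (18.8%) held at least 4 of 12 mural genes, as did 12 of 311 other fibroblasts (3.86%). In those 12 cells Rgs5 averaged 9869 CPM, against 185 CPM in the other 52, and all 12 held Myh11 together with Pecam1 and Flt1. They came from hearts 2, 3 and 4. The mural list summed to 0, 6244, 3790, 4565 and 152 CPM in endothelial-like cells of hearts 1, 2, 3, 4 and 6, and to 139 to 1143 CPM in others. Rgs5 was called higher (2.26 ± 0.43), but it had no count in hearts 1 and 6, and the call was lost when genes kept part of their own spread (adjusted p = 0.264). Pdgfrb, the receptor that mural cells share with fibroblasts, was called lower, and that call was lost likewise (adjusted p = 0.243).

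Fibroblast genes at 9 or more of 18 marked 5 endothelial-like cells, and immune genes at 4 or more of 16 marked 3, against 299 and 47 of the other fibroblasts. The immune list summed to 219 to 462 CPM in endothelial-like cells and 771 to 1229 CPM in others. Against 3.38% of all genes higher and 5.18% lower, none of its 13 genes tested was higher and 2 were lower. These were Ptprc, which encodes CD45, at 0 to 142 CPM against 163 to 449 CPM (-1.66 ± 0.44), and Laptm5 at 0 to 283 CPM against 166 to 471 CPM (-2.41 ± 0.52). Neither was called with a spread of its own (adjusted p = 0.154 and 0.117), and without cells that held 2 or more immune genes the Ptprc difference turned to 1.15. Cardiomyocyte genes summed to 0 to 374 CPM against 0 to 31.6 CPM, and none of the 11 passed the filter for testing. Myh6 had a count in 1 endothelial-like cell. Schwann cell genes summed to 0 to 3.40 CPM against 0 to 88.6 CPM. In all, 19 endothelial-like cells held such genes of another kind. How far droplets with 2 cells account for them was not tested. With those cells left out, 45 endothelial-like cells remained.

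Different endothelial-like cells held the genes of different vessels. The 4 genes per vessel were picked after the values had been seen, so these groups are a description. Arterial genes (at least 2 of Gja5, Bmx, Sema3g and Dll4) were held by 16 cells. Venous genes (at least 2 of Selp, Vwf, Ackr1 and Lrg1) and capillary genes (at least 2 of Cd36, Gpihbp1, Cd300lg and Car4) were held by 18 cells each. Lymphatic genes (at least 3 of Prox1, Lyve1, Pdpn, Flt4, Mmrn1, Reln and Ccl21a) were held by 9 cells. Heart 3 gave 13 of the 16 cells with arterial genes, 15 of the 18 with venous and 12 of the 18 with capillary genes. Of all endothelial-like cells it gave 73.4%. Hearts 1 and 2 held no cell with arterial genes. None of the 311 other fibroblasts met any of these rules, 11 endothelial-like cells met none, and some met more than 1. For artery, vein and capillary this contrast depended on the 4 genes picked. Of the full lists (12 arterial, 10 venous and 11 capillary genes), 152, 175 and 217 other fibroblasts held at least 2 genes. So did 52, 55 and 57 of the 64 endothelial-like cells.

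The cells with arterial genes held more of the Notch target Hey1, which their rule did not use, in 14 of 16 cells against 10 of the other 48. Of these 16 cells, 6 also held at least 4 mural genes. The cells with capillary genes held Fabp4, itself a gene of the rule that chose all endothelial-like cells, at 7097 CPM against 1588 CPM in the rest. Cells with venous genes held Plvap, the diaphragm protein of fenestrated and venous endothelium, in 16 of 18 cells at 609 CPM against 295 CPM in the rest.

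Of the 9 lymphatic cells, 8 came from heart 3 and 1 from heart 4. Mmrn1, Prox1 and Ccl21a were among the genes that chose them. All 9 held Mmrn1, an extracellular protein of lymphatic endothelium, and none of the other 55 endothelial-like cells did. Prox1, the transcription factor that sets lymphatic identity, was held by 6 of 9 cells and by 8 of 55. Ccl21a, a chemokine that draws T cells and dendritic cells to lymph vessels, was held by 5 of 9 and 0 of 55, and its deposited value is a mean over several gene identifiers. Nts, which encodes neurotensin and was in no list, was singled out after its values were seen. It was held by all 9 at 2961 CPM and by 4 of 55 at 20.8 CPM. Flt1 went the other way, with a count in 1 of 9 lymphatic cells and in 51 of 55 others, and Rgs5 had none in the 9.

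**Figure D3:**
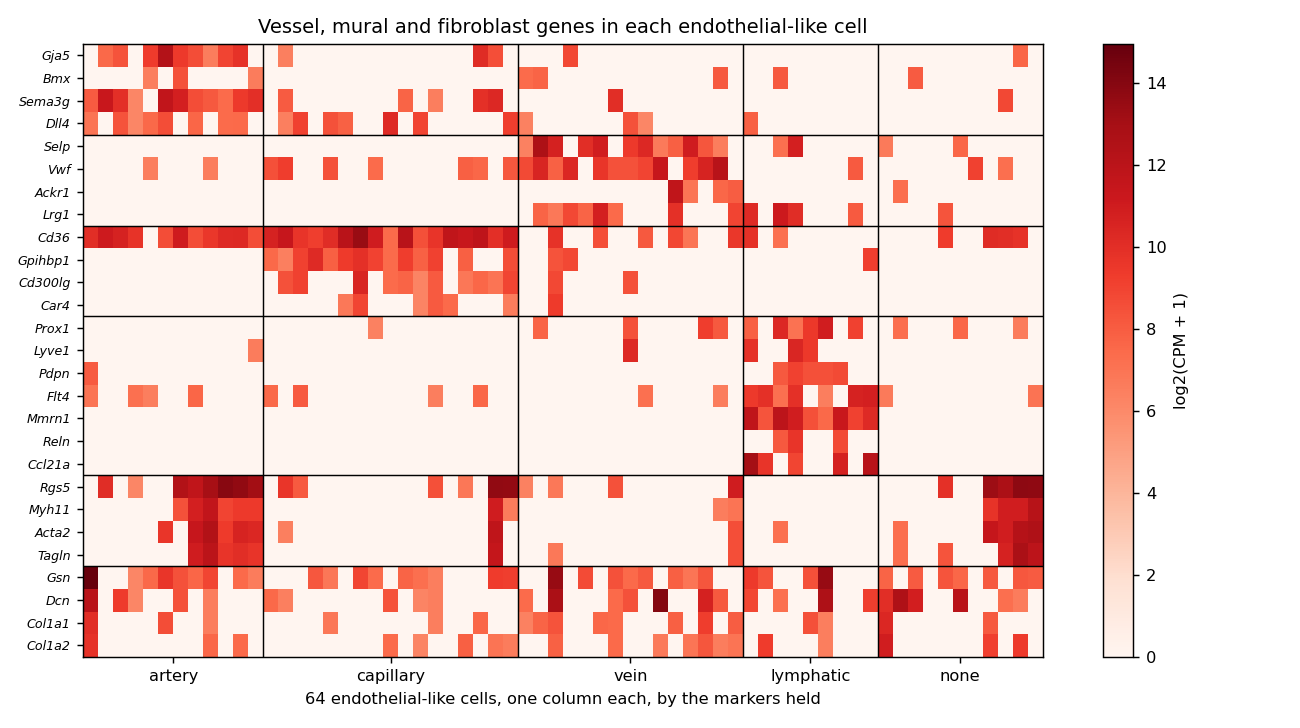
Columns are the 64 endothelial-like cells and rows are arterial, venous, capillary, lymphatic, mural and fibroblast genes from top to bottom, with color for log2(CPM + 1). A cell that met several vessel rules stands under lymphatic first, then vein, capillary and artery, so fewer columns than 16 and 18 stand under some headings. The 9 lymphatic cells hold Mmrn1 in every column, and mural genes form blocks among arterial cells and among cells that met no vessel rule.

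The vessel lists were also compared over whole hearts, where 3.38% of all genes tested were higher and 5.18% lower. Of 8 capillary genes tested, 5 were higher and 1, Lpl, was lower. Gpihbp1, the capillary anchor of lipoprotein lipase, was at 270, 107 and 180 CPM in hearts 1, 3 and 4 against at most 2.16 CPM. Lpl, which encodes that lipase, was at 140 to 656 CPM in the endothelial-like cells of hearts 1 to 4 and at 3892 CPM in heart 6, against 955 to 2090 CPM in others (-2.00 ± 0.34). Its call was lost with a spread of its own (adjusted p = 0.127). Of 8 arterial genes, Hey1 and the ephrin Efnb2 were higher and Fbln5, an elastic fiber protein, was lower. Efnb2 and Fbln5 were not called with a spread of their own (adjusted p = 0.19 and 0.403). Of 7 venous genes, Vwf, Plvap and Icam1 were higher, and of 7 endocardial genes, Plvap, Vwf and Ednrb. For Icam1 and Ednrb that call was lost likewise (adjusted p = 0.0669 and 0.132). Of 3 lymphatic genes tested, Flt4 was higher (2.72 ± 0.83) and Pdpn, which fibroblasts also use, was lower (-2.64 ± 0.61).

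Transcription factors of the endothelial lineage were higher in 8 of 17 tested, against 3.38% of all genes. The count was 6 when genes kept part of their own spread, 5 without IL-33- heart 4 and 4 with thinned cells. Erg, an ETS factor that maintains junctions, was at 91.4 to 193 CPM against 0 to 15.9 CPM (3.44 ± 0.73). Sox18, which takes part in lymphatic and vessel development, was at 35.4 to 541 CPM against at most 1.40 CPM (4.41 ± 0.76). The hypoxia factor Epas1 was at 253 to 818 CPM against 46.5 to 107 CPM (2.65 ± 0.39). Ets1 differed by 1.14 ± 0.35, a call lost with its own spread (adjusted p = 0.299).

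Of 15 receptor and junction genes, 10 were higher and none lower, against 3.38% and 5.18% of all genes, and 5 were higher with thinned cells. Tie1, an orphan receptor of the angiopoietin system, was at 109 to 310 CPM against at most 5.12 CPM (4.27 ± 0.74). F11r, which encodes the junctional protein JAM-A, was at 177 to 633 CPM against at most 19.9 CPM (4.30 ± 0.56). Ctnnb1, the β-catenin of adherens junctions, differed by 1.28 ± 0.35, a call lost with its own spread (adjusted p = 0.254).

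The Notch pathway sets artery and tip cell fates. Of 7 Notch genes tested, the receptors Notch1 and Notch4 and the targets Hes1 and Hey1 were higher, and Heyl was lower. Over all genes tested, 3.38% were higher and 5.18% lower. Notch4 was at 35.4, 70.7, 54.1, 41.5 and 91.4 CPM in hearts 1, 2, 3, 4 and 6 and had no count in any other fibroblast. It passed the filter only through endothelial-like cells, so it could only come out higher. Hes1 was level in heart 1, at 318 against 334 CPM, and higher in heart 3 (2014 against 192 CPM) and heart 4 (1196 against 124 CPM). Heyl had no count in endothelial-like cells and could only come out lower. With a spread of their own, Notch4 and Hey1 were called, while Notch1, Hes1 and Heyl were not (adjusted p = 0.0793, 0.158 and 0.115). Among 6 sprouting genes, the Tie2 ligand Angpt2, the VEGFR1 ligand Pgf and the urokinase receptor Plaur were higher. Angpt2 was at 939, 218, 140, 133 and 0 CPM, against 17.0 CPM in heart 3, 52.7 CPM in heart 6 and 0 elsewhere (4.29 ± 0.67). The Plaur call was lost with its own spread (adjusted p = 0.141).

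Interferon-stimulated genes were higher in endothelial-like cells. Of 20 tested, 17 were called higher and none lower, against 3.38% of all genes, with a median difference of 1.70. Summed over the list, the level was 10220, 9067, 9545 and 18825 CPM in endothelial-like cells of hearts 1 to 4, against 3515, 2315, 3226 and 2693 CPM in others. Heart 6, outside the test with its 2 cells, went the other way, at 4567 against 5276 CPM. The same number, 17, was higher in each of the 3 hearts, against 13.9% of all genes, and for 14 genes all 3 endothelial-like values lay above all 3 others, against 9.57%. With a spread of their own, 3 genes were called, Gbp4, Ifit1 and Ifit2. Without IL-33- heart 4 the count was 7, and with every cell thinned to 1500 UMIs it was 9. Members of the Gbp, Ifit and Irgm families have near-identical copies, so their counts may be split between genes.

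The guanylate-binding protein Gbp4 was at 236, 329, 509, 596 and 183 CPM in endothelial-like cells of hearts 1, 2, 3, 4 and 6, against 17.5 to 157 CPM in others (3.29 ± 0.47). Ifit1, which binds foreign RNA caps, was at 109, 1828, 282, 2505 and 91.4 CPM against 0 to 160 CPM (2.69 ± 0.44). Ifit2 was at 106, 252 and 683 CPM in hearts 1, 3 and 4, against 8.90, 23.6 and 5.91 CPM (3.68 ± 0.60). In these 3 genes heart 4 stood highest. The immunity GTPase Iigp1 was at 1669, 1916 and 3009 CPM in hearts 1, 3 and 4 against 651, 616 and 380 CPM (1.97 ± 0.32). Ifitm3, which blocks virus entry, differed by 1.43 ± 0.33, Ly6e by 1.29 ± 0.33, and the factor Irf1 by 1.46 ± 0.37. Irf1 was lower in heart 1, at 165 against 230 CPM. With their own spread these 4 were not called (adjusted p = 0.0936, 0.197, 0.232 and 0.294). Irgm2 (0.64 ± 0.55, adjusted p = 0.532) and Ifit3 (1.56 ± 0.79, adjusted p = 0.217) were among the genes not called in either fit.

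Several of these genes share a promoter element. The element GAAANNGAAA, searched on both strands as GAAANNGAAA or TTTCNNTTTC, is the core of the interferon-stimulated response element. It lay within 250 bases before the RefSeq start of 11 of the 15 interferon-stimulated genes with a promoter sequence (73.3%). Of all 27025 genes with a promoter it was found in 3.46%, and of the genes tested here in 3.28%. It was found in 0 of 17 endothelial and 0 of 11 fibroblast genes. A match is a description and not a bound site. The list was made of interferon-stimulated genes, so its share describes the list and not these cells. The 11 include Irgm2 and Ifit3, which were not called in either fit. The last 100 bases before the start are shown for the 4 genes whose stretch held the element and touched no annotated exon of these genes, with the element in capitals (RefSeq, GRCm38.p6, 5′ to 3′ along the gene).
Isg15 (chr4:156200819-156200918, minus strand): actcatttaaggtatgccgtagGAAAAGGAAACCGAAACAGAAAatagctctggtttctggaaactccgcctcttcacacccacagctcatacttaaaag
Gbp7 (chr3:142530236-142530335, plus strand): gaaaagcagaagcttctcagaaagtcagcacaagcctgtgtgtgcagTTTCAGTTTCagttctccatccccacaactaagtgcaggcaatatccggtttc
Igtp (chr11:58199456-58199555, plus strand): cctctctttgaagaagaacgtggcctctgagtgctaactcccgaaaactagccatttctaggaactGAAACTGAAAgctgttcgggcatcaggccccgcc
Irgm2 (chr11:58214877-58214976, plus strand): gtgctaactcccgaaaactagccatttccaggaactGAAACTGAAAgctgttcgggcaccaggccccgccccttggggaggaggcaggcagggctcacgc
Isg15 held 3 overlapping matches, beginning 78 to 66 bases before the start, and the other 3 genes held 1 each. In endothelial-like cells of hearts 1, 3 and 4, Isg15, a ubiquitin-like protein, was at 61.2, 212 and 1182 CPM against 44.7, 60.4 and 69.8 CPM (1.98 ± 0.48). Gbp7 was at 365, 378 and 628 CPM against 118, 85.8 and 63.2 CPM (2.23 ± 0.41). The GTPase Igtp was at 307, 190 and 230 CPM against 79.4, 54.4 and 64.3 CPM (1.72 ± 0.47). None of the 3 was called with its own spread (adjusted p = 0.177, 0.0582 and 0.112).

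**Figure D4:**
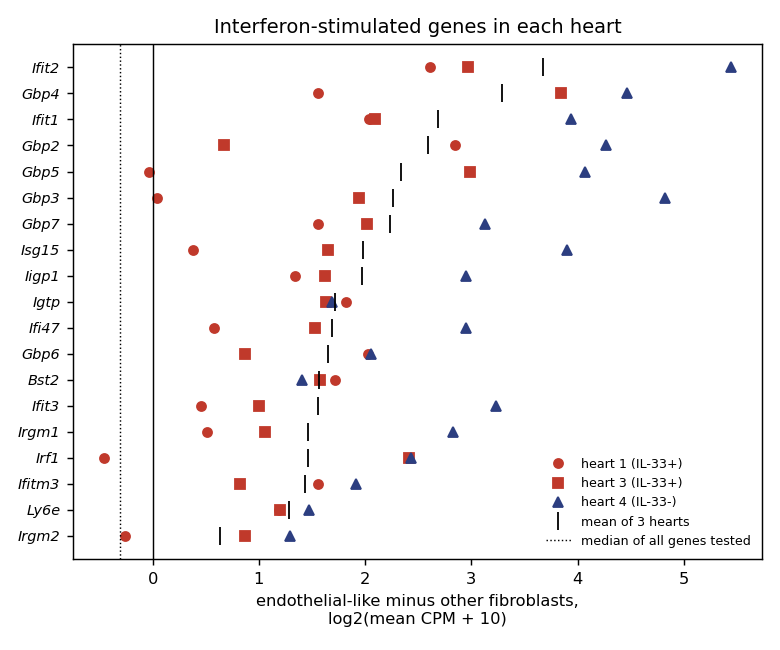
The x axis gives the difference between endothelial-like cells and other fibroblasts on log2(mean CPM + 10) for interferon-stimulated genes (rows), with 1 symbol per heart (red circle heart 1, red square heart 3, blue triangle heart 4) and a black tick at the mean of the 3 hearts. The rows lie above 0 in all 3 hearts except Gbp5, Irf1 and Irgm2, which lie below 0 in heart 1. The dotted line marks the median of all genes tested at -0.31.

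Of 10 MHC class I genes tested, 3 were higher and none lower, against 3.38% and 5.18% of all genes. None was called with its own spread. The peptide transporter genes Tap1 and Tap2 differed by 1.39 ± 0.47 and 1.46 ± 0.42, and the immunoproteasome gene Psmb8 by 1.53 ± 0.48 (adjusted p = 0.196, 0.176 and 0.156 with their own spread). H2-K1, the class I heavy chain, was at 2835 to 5462 CPM against 2079 to 4124 CPM (0.58 ± 0.33, adjusted p = 0.287). H2-D1 and the light chain B2m differed by 0.60 ± 0.32 and 0.71 ± 0.33 (adjusted p = 0.248 and 0.184).

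Of 5 class II genes, Cd74, the invariant chain, was called higher and none lower, against 3.38% and 5.18% of all genes. It was at 916, 256, 695, 659 and 503 CPM against 102 to 346 CPM, with heart 2 below its other fibroblasts, at 256 against 346 CPM, and the groups of hearts 1, 3 and 4 apart (1.37 ± 0.35, adjusted p = 0.209 with its own spread). H2-Aa, H2-Ab1 and H2-Eb1, chains of I-A and I-E, differed by 0.96 ± 0.42, 0.78 ± 0.43 and 0.60 ± 0.44 (adjusted p = 0.145, 0.276 and 0.442). H2-Aa was highest in heart 1, at 838 CPM, and lower than in other fibroblasts in heart 4, at 76.4 against 147 CPM. All these levels were far from the 12702 CPM of Cd74 in dendritic cells (cDCs).

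Of 13 adhesion and chemokine genes, 5 were higher and 3 lower, against 3.38% and 5.18% of all genes, or 2 and 2 without IL-33- heart 4. Cxcl9 (chr5:92321347-92328079, mm10), an interferon-γ-induced ligand of CXCR3 on T cells, was at 2115, 427, 406, 2866 and 183 CPM in endothelial-like cells of hearts 1, 2, 3, 4 and 6. In other fibroblasts it was at 88.6, 0, 46.5, 24.9, 0 and 63.8 CPM in hearts 1 to 6. No heart overlapped, and the difference was 4.56 ± 0.38, called also with its own spread (adjusted p = 0.00711). Macrophages, the annotated type with the most, held 713 CPM. A second CXCR3 ligand, Cxcl10, was at 147, 2201, 1338, 4963 and 274 CPM against 0 to 708 CPM. It was lower in heart 1, at 147 against 217 CPM (1.94 ± 0.34, adjusted p = 0.248 with its own spread).

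The integrin ligands Icam1 and Icam2 differed by 2.23 ± 0.37 and 2.97 ± 0.77, and the membrane chemokine Cx3cl1 by 1.84 ± 0.61. Icam2 was called with its own spread, while Icam1 and Cx3cl1 were not (adjusted p = 0.0669 and 0.127). The lower genes were the neutrophil chemokine Cxcl1, at 0 to 474 CPM against 1506 to 2947 CPM (-3.18 ± 0.33), the cytokine Il6, at 0 to 354 CPM against 571 to 1194 CPM (-2.46 ± 0.37), and Ccl7. The monocyte chemokine Ccl7 was at 0 to 204 CPM against 46.5 to 1458 CPM (-1.99 ± 0.39, adjusted p = 0.129 with its own spread). Ccl2, another ligand of CCR2, showed no difference that could be called. It was at 1469, 70.7, 637, 514 and 0 CPM in endothelial-like cells and at 534, 90.0, 590, 1512, 2806 and 2083 CPM in others (0.00 ± 0.33, adjusted p = 0.996).

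Of 15 basement membrane and matrix genes tested, 2 were higher, the collagens Col4a1 and Col4a2, and 6 were lower, Col15a1, Lamc1, Nid1, Sparc, Mgp and Bgn, against 3.38% and 5.18% of all genes. Without IL-33- heart 4, 3 were lower. Col4a1 was at 1088 to 4026 CPM against 429 to 811 CPM (1.58 ± 0.32, adjusted p = 0.165 with its own spread). Col4a2 was at 283 to 2331 CPM against 55.3 to 318 CPM (2.60 ± 0.37), called in both fits. Mgp, an inhibitor of calcification, differed by -3.75 ± 0.32 in hearts 1, 3 and 4. Its 34677 CPM in the 2 cells of heart 6 lay outside that test. Sparc and the basement membrane linker Nid1 differed by -1.21 ± 0.32 and -1.91 ± 0.37 (adjusted p = 0.301 and 0.0895 with their own spread).

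Of 14 genes of vascular tone and hemostasis, 5 were higher and 4 lower, against 3.38% and 5.18% of all genes. The counts were 1 and 2 with a spread of their own, 0 and 3 with thinned cells, and 2 and 4 without IL-33+ heart 3. Vwf, the clotting factor carrier of endothelium, was at 727, 321, 286, 28.7 and 45.7 CPM in endothelial-like cells and at 2.03 CPM in heart 3 and 0 elsewhere in others (4.26 ± 0.77). The vasoconstrictor Edn1 was at 127 to 2195 CPM against 0 to 104 CPM (2.63 ± 0.53) and its processing enzyme Ece1 differed by 2.07 ± 0.40 (adjusted p = 0.0518 and 0.0607 with their own spread). Ptgs2, which encodes COX-2, was called lower (-1.88 ± 0.36), yet it was higher in heart 1, at 1672 against 422 CPM, and the call was lost with its own spread (adjusted p = 0.388). Of 8 fatty acid genes tested, Fabp5, Cd36 and Gpihbp1 were higher in both fits. Lpl was called lower in the main fit only, and 4 genes were not called there.

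Of 15 genes of endothelial to mesenchymal change tested, none was called higher, and Tgfb2 and Tgfbr2 were lower (-2.56 ± 0.57 and -1.52 ± 0.48, adjusted p = 0.0515 and 0.203 with their own spread). Of 14 immediate early genes, which dissociation is known to induce, none was higher, and Egr1 and Nr4a1 were lower (-1.14 ± 0.33 and -1.16 ± 0.33, adjusted p = 0.405 and 0.307 with their own spread). Of 6 cell cycle genes, Pcna was higher (1.42 ± 0.37, adjusted p = 0.266 with its own spread). Beside these counts, 3.38% of all genes tested were higher and 5.18% lower.

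Of 6 genes tested of the IL-33 and amphiregulin axis, 1 was called higher, Hbegf, and 1 lower, Egfr, the receptor of amphiregulin. Over all genes tested, 3.38% were higher and 5.18% lower. Egfr (chr11:16752203-16918158, mm10) had a UMI in 0 of 64 endothelial-like cells, which allows up to 4.69% of cells with a UMI and sets no limit on cells that express it, and in 120 of 311 other fibroblasts. Thinned to 1500 UMIs, 12.2% of other fibroblasts still had one. Its level in other fibroblasts was 77.1, 158, 96.3, 54.1, 102 and 97.9 CPM in hearts 1 to 6 (-3.07 ± 0.85). In the main fit Egfr passed the filter only through other fibroblasts, so it could only come out lower. It was called also with its own spread (adjusted p = 0.0119). The call was lost without IL-33- heart 4 (adjusted p = 0.231), with 2 or more rule genes (-1.78, adjusted p = 0.0684) and with no filter on low values (adjusted p = 0.0627). The EGFR ligand gene Hbegf was at 460, 832, 414, 1124 and 1210 CPM in endothelial-like cells, against 0 to 159 CPM in others. The groups did not overlap (2.31 ± 0.39, adjusted p = 0.0544 with its own spread). Il33 itself was found in 2 of 64 cells against 54 of 311 (-1.44 ± 0.86, adjusted p = 0.311). Areg was found in 3 cells against 12, and Il1rl1, which encodes the IL-33 receptor ST2, in 2 against 6, both too sparse for the test.

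The study compared IL-33+ with IL-33- grafts. The share of endothelial-like cells among annotated fibroblasts was 14.7%, 33.3% and 17.4% in IL-33+ hearts 1, 2 and 3, and 25.8%, 0% and 6.67% in IL-33- hearts 4, 5 and 6. The mean was 21.8% ± 10.1 (SD, n = 3) against 10.8% ± 13.4 (SD, n = 3), a difference of 10.99 points. A two-sided exact permutation test gave p = 0.4, where 3 against 3 hearts cannot go below 0.1. The groups overlapped, since heart 4 lay above hearts 1 and 3. The 0 of 4 in heart 5 allows a share of up to 75.0% by the limit of 3 counts, while the exact interval ends at 60.2%. Heart 5 with 4 and heart 2 with 6 fibroblasts thus set little on their groups.

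**Figure D5:**
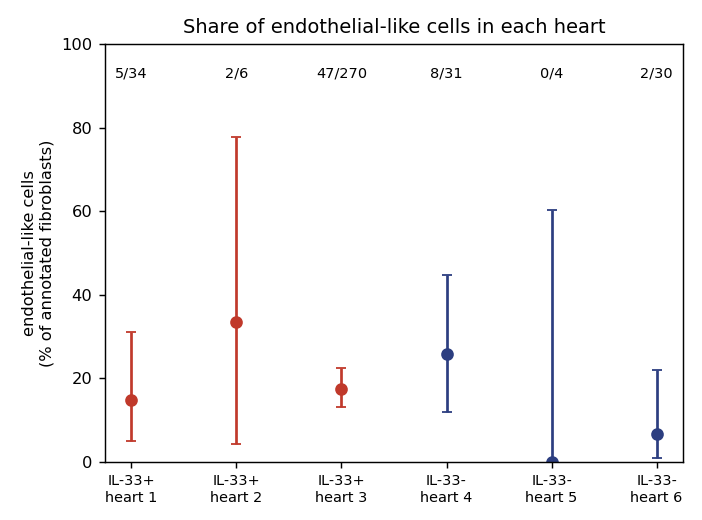
Share of endothelial-like cells among the annotated fibroblasts of each heart (points, percent) with exact binomial 95% confidence intervals, red for IL-33+ and blue for IL-33- hearts, and the cell numbers above. The intervals overlap across all 6 hearts, and that of heart 5 runs from 0 to 60.2%.

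Gene levels could be compared between grafts only loosely, since 1 IL-33- heart held at least 5 endothelial-like cells. Between hearts 1 and 3 and heart 4, with no test, 1014 of 3754 genes differed by at least 2-fold (27.0%), 642 higher (17.1%) and 372 lower (9.91%) in IL-33+ hearts. With every heart that had such a cell (1, 2 and 3 against 4 and 6), limma called 0 of 5364 genes (0.0%), with 165 at an unadjusted p of at most 0.05 (3.08%). This count moved with the hearts used: 10 genes were called without heart 2, 2 without heart 1 and 0 without heart 3. In that comparison 959 genes did not overlap between groups (17.9%).

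The 10 genes of smallest p without overlap were Lpl, Col15a1, Pdgfb, Vwf, Hba-a1, Pik3r1, Fermt2, Angpt2, Pgam1 and Crim1, and none was called. Lpl was at 254, 147 and 140 CPM in IL-33+ hearts 1, 2 and 3 and at 656 and 3892 CPM in IL-33- hearts 4 and 6 (IL-33+ minus IL-33- of -3.13 on the log2 scale, adjusted p = 0.0661). Vwf was at 727, 321 and 286 CPM against 28.7 and 45.7 CPM (3.16, adjusted p = 0.233). Pdgfb, the ligand by which endothelium recruits mural cells, was at 661, 318 and 233 CPM against 60.3 and 0 CPM (3.83, adjusted p = 0.233). The collagen gene Col15a1 was at 898, 672 and 299 CPM against 161 and 0 CPM (3.80, adjusted p = 0.199). The values of heart 6 rest on 2 cells, one of them with 9 or more fibroblast genes.

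Whether the graft difference itself differed between endothelial-like cells and other fibroblasts was compared in the same hearts. With hearts 1, 3 and 4 and no test, 4160 of 9472 genes differed by at least 2-fold (43.9%). With the 5 hearts, limma called 0 of 10632 genes, with 394 at an unadjusted p of at most 0.05 (3.71%).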

How the data were processed

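Cells of 6 hearts were tagged with hashtag antibodies, pooled and sequenced as one 10x Genomics 3' library with its hashtag library. The authors mapped reads with Cell Ranger to mm10, kept cells by UMI count, gene number and mitochondrial share in Partek Flow (10.0.23.0425, per the labels), annotated clusters by marker genes and assigned each cell to a heart. These limits also served the authors to remove potential doublets, and the sources used here name no doublet caller. How hashtags were called is not given in the sources used here. They deposited log2(CPM + 1) per cell and a cell table. CPM was taken back from these values, and 99.9% of low values came within 0.05 of a whole UMI. Cells held 1500 to 14977 UMIs (median 3698), which limits single genes to few counts per cell.

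CPM was averaged per heart and cell group. Hearts with at least 5 cells of both groups were compared on log2(mean CPM + 10) with heart as a block in limma 3.58.1 (lmFit, eBayes with trend, R 4.3.3), over genes outside the 7 of the rule that summed to 10 UMIs or more and were seen in 3 hearts or more. That sum covered both groups, so a gene with no count in either group could be called in a single direction only. With the trend, the prior degrees of freedom were infinite against 2 residual ones. A fit without the trend was therefore added after seeing the data and is called a gene's own spread. Its prior had 7.42 degrees of freedom against the same 2, so most of the spread still came from a value shared by all genes. A call lost there is thus not a measure of that gene's spread alone. The p-values measure the spread between hearts of 1 pool. Intervals are exact (Clopper-Pearson) and, like limits for a count of 0 (3 counts), cover counting error only. The scripts were tested on simulated data. Genes were named by a rule: the 7 rule genes, the 12 largest and 12 smallest called differences of equal direction in each heart used, the 10 graft genes of smallest p without overlap, the up to 4 members of each list with the highest mean CPM in endothelial-like cells, Il33, Ccl2 and Ccl7. Of these, some list members are given only in their list's counts, and further called or vessel genes, such as Nts, Egfr, Notch4 and Tek, were named after their values were seen. Members and gene lists were chosen with earlier results of these data known. Some list members are not reported here by name. Gene positions are GENCODE M21, promoters RefSeq.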

Additional observations from a re-analysis of the deposited data

Results flagged for a closer look

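Outside the annotated fibroblasts, 28 of 4066 cells (0.689%) also held 3 or more of the 7 rule genes, a signal in cells that no comparison used. They were 9 NKT cells, 5 NK cells, 4 macrophages, 4 monocytes, 3 cDCs and 1 each of Tem/eff, Trm-like and unconventional T cells. The 28 cells held a median of 1 of 30 endothelial genes outside the rule, against 19 in the 64 endothelial-like cells. The median was 7 in the 5 NK cells, and the 1 Trm-like cell held 12. Counted by Cdh5 instead, 76 cells of other types had a UMI of it (1.87%), as did 58 annotated fibroblasts.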

How the results depend on the processing

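The comparison of endothelial-like cells with other fibroblasts called 810 genes, but 364 with no filter on low values, 527 with every heart that had a cell and 404 without the trend. Leaving out 1 heart gave 377 to 880 genes, with 377 without IL-33- heart 4, and leaving out the block on heart gave 660. The graft comparison, a count of 2-fold differences, gave 1014 genes. It gave 305 with cells thinned to 1500 UMIs, 4296 with no filter, 414 with a pseudocount of 50 CPM and 1885 with every heart that had a cell. Leaving out 1 heart gave 545 to 1155 genes, with 545 without IL-33+ heart 3, or 739 to 1952 over all hearts with a cell, with 739 without heart 3, 1952 without heart 1, 1869 without heart 2 and 1890 without heart 4. The difference of the graft effect went from 4160 to 6251 genes with a pseudocount of 1 CPM and to 1262 with 50 CPM. The share of endothelial-like cells stayed higher in IL-33+ hearts in all 12 alternatives, by 0.985 points of all cells and 4.47 to 18.5 points of fibroblasts, with exact permutation p of 0.2 to 0.8. The causes of these shifts were not tested.

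For 112 named genes there were 1992 pairs of gene and alternative: 1692 kept direction and side of the threshold, 265 lost the call, 14 gained it and 21 changed sign. Ccl2, at 0.00, turned to -0.2985 with 2 or more and -0.087 with 4 or more rule genes, -0.52 when thinned, -0.52 without cells with 2 or more immune genes, -0.28 by limma-voom, -1.60 with every heart, -0.35 without cells of another kind, and to -0.71 and -0.048 without heart 1 or 3 (0.78 without heart 4). Clec14a turned to -0.069 with 2 or more rule genes and -1.27 with a pseudocount of 1 CPM. Thy1 turned to -0.45 with 4 or more rule genes, -0.12 with summed UMIs, -0.32 by limma-voom and -0.29 with every heart. Thinning gave Irgm2 -1.51 and H2-Eb1 -0.11, every heart gave H2-Aa -0.34, leaving out cells with 2 or more immune genes gave H2-Ab1 -0.17 and Ptprc 1.15, and leaving out 1 heart gave Fbln5 -2.28 to 0.037, the latter without heart 1. The fits without the trend, with a robust spread and without cells of another kind, and those leaving out 1 of all hearts with a cell, were chosen after seeing the data. Hearts with 10 cells or more left 1 heart and were not run. No paired analysis was possible because IL-33+ and IL-33- hearts share no replicate number.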
